A study of Mus musculus with 8 samples.

Results

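Basophils, mast cells and eosinophils are rare granulocytes, and 8 genes that mark them were examined in the spleens of mice given all-trans-retinoic acid (tRA). The genes were chosen by symbol, through the match of Ensembl identifiers to GENCODE on GRCm38, and all 8 were found among the 51826 genes counted. They are Mcpt8, Prss34, Cpa3, Ms4a2, Fcer1a, Gata2, Prg2 and Epx. Spleen cells, not sorted by type, were sequenced from 8 female Balb/c mice, 4 in the tRA group and 4 in the control group. The tRA mice received 1 mg/kg body weight of tRA in canola oil by mouth each day from weaning until 3 months of age, and the control mice received the oil alone. No pristane, the lupus-inducing oil used elsewhere in the study, was given to either group. The sample labels give the same tRA dose for all 8 mice, so the groups follow the sample titles and the vehicle is taken from the study's methods. Counts on genes totaled between 30919272 and 37539631 per control mouse and between 31810417 and 35165876 per tRA mouse.

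Basophils and mast cells share the high-affinity IgE receptor, FcεRI, whose crosslinking by antigen releases histamine, proteases and cytokines from the cell. Both lineages depend on the transcription factor GATA2, while eosinophils carry cationic granule proteins and develop under IL-5. In the spleen basophils and eosinophils are few among lymphocytes, and mature mast cells reside mainly in connective tissue and mucosa.

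The levels of the 8 genes were low and their marker sets were only partly present. Levels are given as CPM, the count of a gene over the library size as scaled by the TMM method of edgeR, and fold changes are tRA over control on the log2 scale. Mean levels per kb of exon were 1.78 CPM for Prg2, 1.25 for Cpa3, 0.791 for Mcpt8, 0.736 for Prss34, 0.455 for Gata2, 0.284 for Ms4a2, 0.134 for Fcer1a and 0.0217 for Epx. The ranges over the mice overlapped between every pair of neighbours in this order. Within a mouse, Prg2 exceeded Cpa3, Cpa3 exceeded Mcpt8 and Gata2 exceeded Ms4a2 in 8 of 8 mice each, whereas Mcpt8 exceeded Prss34 in 4 of 8. The median count over these genes and mice was 28.5. Counting error was 12.3% of the squared coefficient of variation between mice of a group for Gata2, 18.7% for Prss34, 23.2% for Prg2, 29.7% for Cpa3, 29.6% for Fcer1a and 32.0% for Mcpt8. It was 51.9% for Ms4a2, and for Epx the spread between mice was below that of counting.

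Among 12 other mast cell genes, the tryptase gene Tpsab1 and the receptor genes Mrgprb1 and Mrgprb2 had 0 counts in all 8 mice, a limit of 0.0112 CPM over the 8 libraries at 3 counts. The tryptase gene Tpsb2 had 2 counts in a single mouse and the connective tissue mast cell protease gene Mcpt4 at most 3, whereas Mcpt1, a protease gene of mucosal mast cells, had 2 to 24 counts per mouse. Kit, the stem cell factor receptor that progenitors also carry, and Cma1, a chymase gene, were measured at 14.4 ± 3.34 and 5.66 ± 1.61 CPM (SD, n = 4) in control mice. Cpa3, Kit and Gata2 are expressed by progenitors as well as by mast cells. Among 10 other eosinophil genes, the ribonuclease gene Ear1 had 1 count in all mice together and Ear6 had 2, while Il5ra, the IL-5 receptor that B cells also carry, was measured at 19.7 ± 2.81 CPM (SD, n = 4) in control mice. The eotaxin receptor gene Ccr3 stood at 16.7 ± 5.46 CPM and the ribonuclease gene Ear2 at 10.2 ± 2.85 CPM in control mice (SD, n = 4). The lectin gene Siglecf stood at 0.596 ± 0.226 CPM in control mice (SD, n = 4). Which splenic cells held the RNA of Ccr3, Ear2 and Siglecf was not tested. The Mcpt and Ear families hold close copies among which counting can split reads.

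Mcpt8 (ENSMUSG00000022157, chr14:56082166-56085273) encodes mast cell protease 8, a granule serine protease made in the mouse mainly by basophils. It had 40, 25, 21 and 20 counts in control mice 1 to 4 and 17, 24, 25 and 41 in tRA mice 1 to 4. These are 1.08, 0.778, 0.607 and 0.646 CPM in the control mice and 0.519, 0.756, 0.678 and 1.25 CPM in the tRA mice. The highest and the lowest mouse were both tRA mice, and the groups overlapped. The log2 fold change was 0.035 (standard error 0.325, 95% confidence interval -0.68 to 0.75, FDR 0.989 by edgeR). It was -0.26 without tRA mouse 4, 0.24 without control mouse 1 and -0.00922 by limma-voom. In total splenocytes, fewer cells of a type and less RNA per cell cannot be told apart.

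Prss34 (ENSMUSG00000056399, chr17:25298394-25300165) encodes mast cell protease 11, a tryptase made by basophils. Its level was 0.622, 1.03, 1.13 and 0.969 CPM in control mice 1 to 4 and 0.305, 0.693, 0.976 and 1.47 CPM in tRA mice 1 to 4. The tRA mice spread on both sides of the control mice, and the 4.80-fold range from tRA mouse 1 to tRA mouse 4 was the widest among the 6 genes that passed the filter on low counts. tRA over control gave a log2 fold change of -0.12 (standard error 0.404, 95% confidence interval -1.01 to 0.77, FDR 0.969 by edgeR). It was -0.49 without tRA mouse 4 and 0.16 without tRA mouse 1.

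Cpa3 (ENSMUSG00000001865, chr3:20215620-20242181) encodes carboxypeptidase A3, which trims peptides in the granules of mast cells and is also made by basophils and their progenitors. It was measured at 1.87, 1.99, 1.42 and 1.97 CPM in control mice 1 to 4 and at 1.34, 2.61, 1.74 and 2.23 CPM in tRA mice 1 to 4. The groups overlapped, with tRA mouse 1 lowest and tRA mouse 2 highest. The log2 fold change was 0.13 (standard error 0.235, 95% confidence interval -0.39 to 0.65, FDR 0.922 by edgeR), and without tRA mouse 2 it was -0.036. The annotated microRNA genes within Mcpt8 and Cpa3, Mir6949 and Mir7007, had 0 counts and 1 count over all mice.

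Ms4a2 (ENSMUSG00000024680, chr19:11615523-11623719) encodes the beta chain of FcεRI, which amplifies the signal of the receptor. It was measured at 0.622, 0.591, 0.693 and 0.776 CPM in control mice 1 to 4 and at 0.580, 0.850, 1.27 and 1.01 CPM in tRA mice 1 to 4. Of the tRA mice, 2, 3 and 4 lay above all control mice and tRA mouse 1 lay below them in CPM. In counts, tRA mouse 1 and control mouse 2 were equal at 19 each. On the log2 scale the fold change was 0.47 (standard error 0.281, 95% confidence interval -0.15 to 1.09, unadjusted p 0.121, FDR 0.792 by edgeR), the largest of the 6 genes tested. Without tRA mouse 1 it was 0.64, with an unadjusted p of 0.0364 and an FDR of 0.369 by edgeR, and without tRA mouse 3 it was 0.28 with an unadjusted p of 0.373. Over the alternatives that gave an FDR, that of Ms4a2 ranged from 0.369 to 0.999.

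Fcer1a (ENSMUSG00000005339, chr1:173221284-173227214) encodes the alpha chain, which binds IgE. It had 7, 7, 3 and 0 counts in control mice 1 to 4 and 3, 2, 3 and 11 in tRA mice 1 to 4, and it did not pass the filter on low counts. The count of 0 allows up to 0.0969 CPM in control mouse 4, and tRA mouse 4 stood apart at 0.336 CPM. Over the groups there were 17 counts in control mice and 19 in tRA mice, a ratio of 1.12 after scaling with a 95% interval from 0.552 to 2.30 that covers counting error only. With single mice left out the ratio ran from 0.625 without tRA mouse 4, which held 11 of the 19 counts, to 1.45 without control mouse 2, and it was also below 1 without control mouse 4, at 0.864. The coefficient of variation between mice of a group was 86.6%, where counting alone gives 47.1%.

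All 15 genes of a list of FcεRI signalling passed the filter, and most of them are also used by lymphocytes. The list also holds Fcer2a and Lgals3, so that its values are not those of FcεRI signalling alone. The median log2 fold change of the 15 genes was 0.011, with 0 called at an FDR under 0.1. Syk, a kinase that B cells use too, was the most abundant at 1011 ± 65.4 CPM in control mice and 1033 ± 44.8 in tRA mice (SD, n = 4). Fcer2a, which encodes the low-affinity IgE receptor of B cells, had a log2 fold change of 0.15 (FDR 0.796 by edgeR). Lcp2, an adaptor shared with T cells, was higher in each tRA mouse than in each control mouse, with a log2 fold change of 0.17 (unadjusted p 0.0276, FDR 0.757 by edgeR).

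Gata2 (ENSMUSG00000015053, chr6:88193891-88207032) encodes the transcription factor that basophils and mast cells share with blood stem and progenitor cells. It was measured at 2.19, 3.33, 2.22 and 2.13 CPM in control mice 1 to 4 and at 1.71, 1.67, 2.82 and 3.57 CPM in tRA mice 1 to 4. The tRA mice lay on both sides, 2 of them below all control mice and 1 above. The log2 fold change was -0.013 (standard error 0.274, 95% confidence interval -0.62 to 0.59, FDR 0.995 by edgeR). It was 0.022 with library size alone, 0.16 without control mouse 2 and -0.25 without tRA mouse 4.

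Of 14 other transcription factors of these lineages, all passed the filter and 0 were called at an FDR under 0.1, with a median log2 fold change of -0.077. Irf8 and Stat5b were the most abundant, with log2 fold changes of -0.095 and 0.039. Cebpe, a factor of late granulocyte maturation that is counted among the neutrophil precursor genes too, had a log2 fold change of -0.82 (unadjusted p 0.0145) and Spi1 one of -0.18 (unadjusted p 0.0350), both with an FDR of 0.757 by edgeR. Of 9 blood stem and progenitor cell genes other than Gata2, 7 passed the filter, with a median of -0.00944, and Ly6a, which lymphocytes also express, had a log2 fold change of -0.75 (unadjusted p 0.00417, FDR 0.757 by edgeR). Of 8 platelet and megakaryocyte genes, 5 passed, with a median of -0.095 and Itga2b and Gp1ba the most abundant.

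Prg2 (ENSMUSG00000027073, chr2:84980461-84983632) encodes major basic protein, the core of the eosinophil granule. It was measured at 1.68, 1.62, 1.13 and 2.17 CPM in control mice 1 to 4 and at 0.764, 1.79, 1.22 and 1.59 CPM in tRA mice 1 to 4. A control mouse was highest and a tRA mouse lowest, and the groups overlapped. The log2 fold change was -0.29 (standard error 0.292, 95% confidence interval -0.94 to 0.35, FDR 0.858 by edgeR), and it ranged from -0.47 without tRA mouse 2 to -0.10 without tRA mouse 1.

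Epx (ENSMUSG00000052234, chr11:87864000-87875536) encodes eosinophil peroxidase. It had 2, 3, 2 and 0 counts in control mice 1 to 4 and 2, 3, 2 and 2 in tRA mice 1 to 4. Every mouse was thus at or below 3 counts, and Epx did not pass the filter. With 7 counts in the control group and 9 in the tRA group, the ratio after scaling was 1.29 with a 95% counting interval from 0.428 to 4.08. With single mice left out it ran from 0.994 without control mouse 4 to 1.72 without control mouse 2. Per kb of exon, the highest level of Epx in a mouse was 0.0345 CPM and the lowest level of Prg2 was 0.911 CPM.

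**Figure D1:**
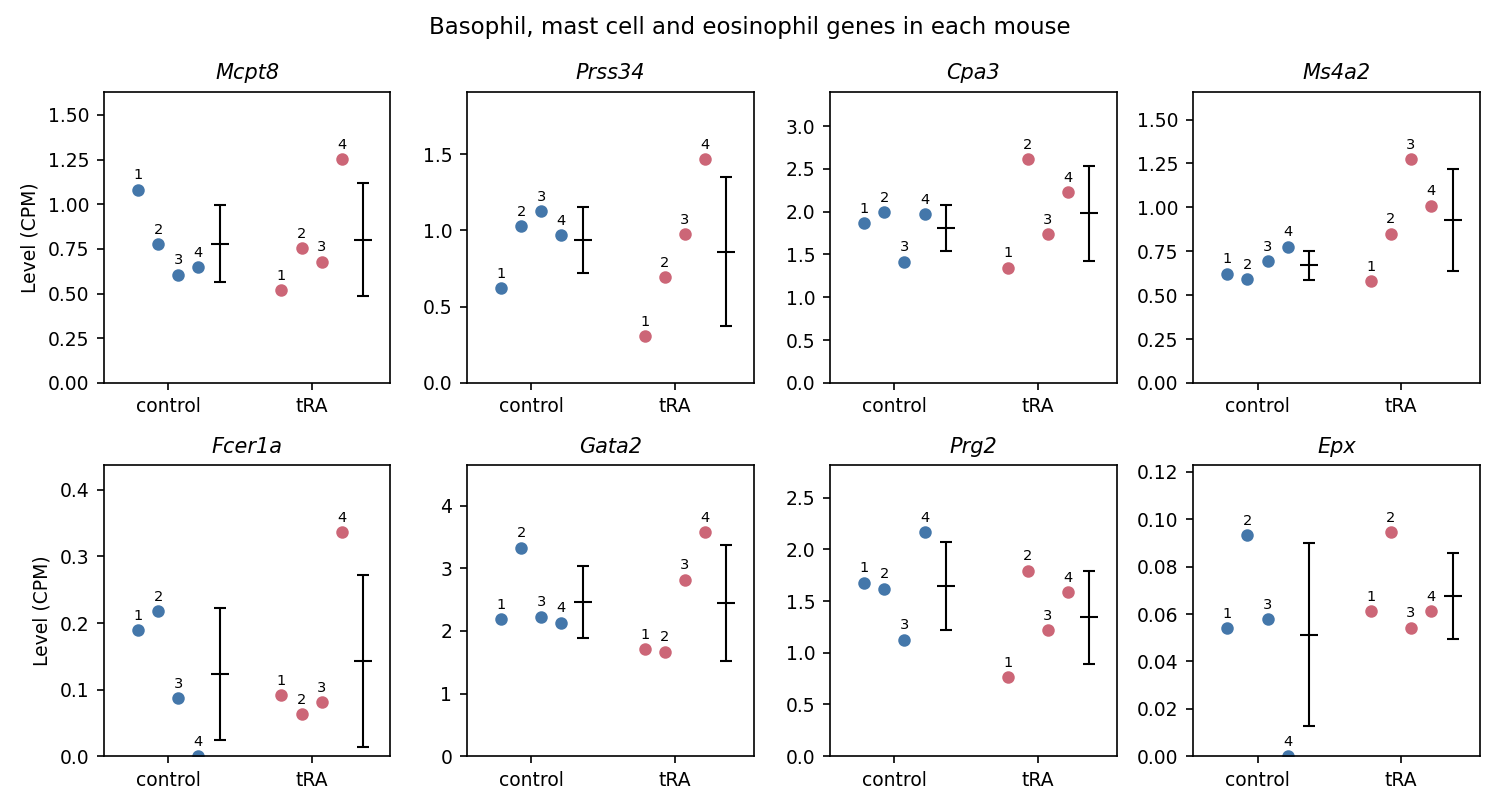
Level of each of the 8 genes in CPM (vertical axis, its own scale for each gene) in control mice 1 to 4 (blue) and tRA mice 1 to 4 (red), each point being 1 mouse with its number and each bar the mean with the SD. The groups overlap for every gene, and tRA mouse 1 is lowest for 5 of the 6 genes that passed the filter on low counts.

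As a group, 6 of the 8 genes passed the filter, and 0 of the 6 were called at an FDR under 0.1 by edgeR's quasi-likelihood test, where 0% of the 16484 genes tested were called. At an unadjusted p under 0.05 there were 0 of the 6 by edgeR, against 1070 genes or 6.49% of those tested, of which 2.94% were higher and 3.55% lower with tRA. DESeq2 called 44 genes in all and 0 of the 3 among these 6, Cpa3, Gata2 and Prg2, to which it gave an adjusted p, and 0 of the 6 had an unadjusted p under 0.05 with it. The tRA mice lay wholly on a single side of the control mice for 0 of the 6, against 3.54% of the genes tested. With so few genes these shares do not set them apart from the other genes. Their log2 fold changes were above 0 for 3 and below 0 for 3, with a median of 0.011 against 0.0014 over all genes tested. Leaving out a mouse moved this median to -0.26 without tRA mouse 4 and to 0.18 without tRA mouse 1.

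The mice differed more within the tRA group than the group means differed from each other. Summed over the 8 genes, the level was 8.31, 9.65, 7.34 and 8.66 CPM in control mice 1 to 4 and 5.38, 8.53, 8.84 and 11.5 CPM in tRA mice 1 to 4. The tRA mice thus held both the lowest and the highest sum, which differed 2.14-fold, while the means were 8.49 ± 0.954 CPM in control mice and 8.57 ± 2.52 CPM in tRA mice (SD, n = 4). Among the 6 genes that passed the filter, tRA mouse 1 was lowest in 5 and tRA mouse 4 highest in 3, in CPM. The 12 other basophil genes, with Hdc the most abundant, summed highest in tRA mouse 1, at 115 CPM against 74.0 to 102 CPM in the other mice. The sums of the other mast cell and other eosinophil genes were lowest in tRA mouse 1, at 22.1 and 66.2 CPM.

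Other cell types also varied across these mice. All 14 neutrophil precursor genes, Cebpe among them, had a log2 fold change below 0, with a median of -0.85 and 12 at an unadjusted p under 0.05. Their summed level was 578, 729.9, 767 and 659 CPM in control mice 1 to 4 and 267, 331, 364 and 522 CPM in tRA mice 1 to 4, so that tRA mice 1 and 4 were the lowest and the highest of their group as for the 8 genes, whereas control mouse 3 was the highest of its group here and the lowest for the 8 genes. The most abundant of them, Ngp, had 325 ± 44.0 CPM in control mice and 171 ± 50.9 in tRA mice (SD, n = 4), and 0 of the 14 had 0 counts throughout. By edgeR 0 of the 14 were called at an FDR under 0.1, with Camp the nearest at a log2 fold change of -1.23 and an FDR of 0.135. DESeq2 did call Camp, Ngp, Ltf and Lcn2, and edgeR without tRA mouse 4 called Camp (FDR 0.000176), Ngp (0.0525) and Ltf (0.0800). The summed level of 9 erythroid genes was 831, 1556, 2410 and 499.8 CPM in control mice 1 to 4 and 2298, 636, 3564 and 598 CPM in tRA mice 1 to 4, in another order than the 8 genes. Of these erythroid genes 0 had an unadjusted p under 0.05, with a median log2 fold change of 0.26, and Hbb-bs was the most abundant. The paper's isolation of splenocytes, described with its flow cytometry, included lysis of red blood cells. The part of neutrophil precursors and erythroid cells in the values of the 8 genes was not tested.

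Further genes of basophils were measured beside the 8. Of 12 other basophil genes, 10 passed the filter, 1 was higher and 1 lower at an unadjusted p under 0.05, and 0 were called at an FDR under 0.1, with a median log2 fold change of 0.12. Cd200r3, an activating receptor of basophils and mast cells, had 0.325, 0.498, 0.925 and 0.614 CPM in control mice 1 to 4 and 1.16, 0.819, 1.60 and 1.53 CPM in tRA mice 1 to 4. Of the tRA mice, 3 lay above all control mice and tRA mouse 2 lay between control mice 3 and 4. The log2 fold change of Cd200r3 was 1.11 (standard error 0.343, 95% confidence interval 0.36 to 1.87, unadjusted p 0.00801, FDR 0.757 by edgeR), and leaving out single mice gave values from 0.91 to 1.42. Its level rests on 12 to 59 counts per mouse, and it belongs to a family of close copies. Il3ra, the alpha chain of the IL-3 receptor, had a log2 fold change of -0.32 (unadjusted p 0.0383, FDR 0.757 by edgeR). Its level was 11.1 ± 1.51 CPM in control mice (SD, n = 4), and which splenic cells held its RNA was not tested. Hdc, which encodes the histamine-forming enzyme and is also expressed by neutrophils, was the most abundant at 25.7 ± 6.33 CPM in control mice and 27.6 ± 10.2 in tRA mice (SD, n = 4).

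Of the 12 other mast cell genes, 4 passed the filter, with a median log2 fold change of -0.094 and 0 at an unadjusted p under 0.05. Kit had a log2 fold change of 0.019 and Cma1 one of -0.098, and the sign of each changed when 1 mouse was left out. The change furthest from 0 was that of Mcpt1, at -0.91 (standard error 0.540, unadjusted p 0.121, FDR 0.792 by edgeR). Mcpt1 had 0.650, 0.373, 0.318 and 0.646 CPM in control mice 1 to 4 and 0.0611, 0.315, 0.136 and 0.550 CPM in tRA mice 1 to 4. tRA mouse 4 lay within the range of the control mice and the other tRA mice lay below it. Of the 10 other eosinophil genes, 7 passed, with a median of -0.011 and 0 at an unadjusted p under 0.05. Adgre1, which macrophages express as well, had a log2 fold change of 0.040 and Il5ra one of -0.10, while Ccr3 was at -0.011, Ear2 at -0.30, Siglecf at 0.082 and Alox5 at -0.079. Furthest from 0 was Alox15, at 0.81 (standard error 0.663, unadjusted p 0.250, FDR 0.830 by edgeR). Alox15 had 1.22, 1.21, 7.69 and 1.16 CPM in control mice 1 to 4 and 2.14, 3.62, 10.2 and 3.79 CPM in tRA mice 1 to 4. Control mouse 3 and tRA mouse 3 thus stood far above the other mice of their groups. Prg3, a homolog of Prg2, did not pass the filter, with 5, 4, 10 and 8 counts in control mice 1 to 4 and 7, 12, 19 and 11 in tRA mice 1 to 4, or 0.202 ± 0.0841 and 0.361 ± 0.124 CPM (SD, n = 4), so that its group means differed in the other direction than those of Prg2. Mcpt1, Ccr3, Ear2, Siglecf, Alox5, Alox15 and Prg3 were picked for mention after their values were seen.

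**Figure D2:**
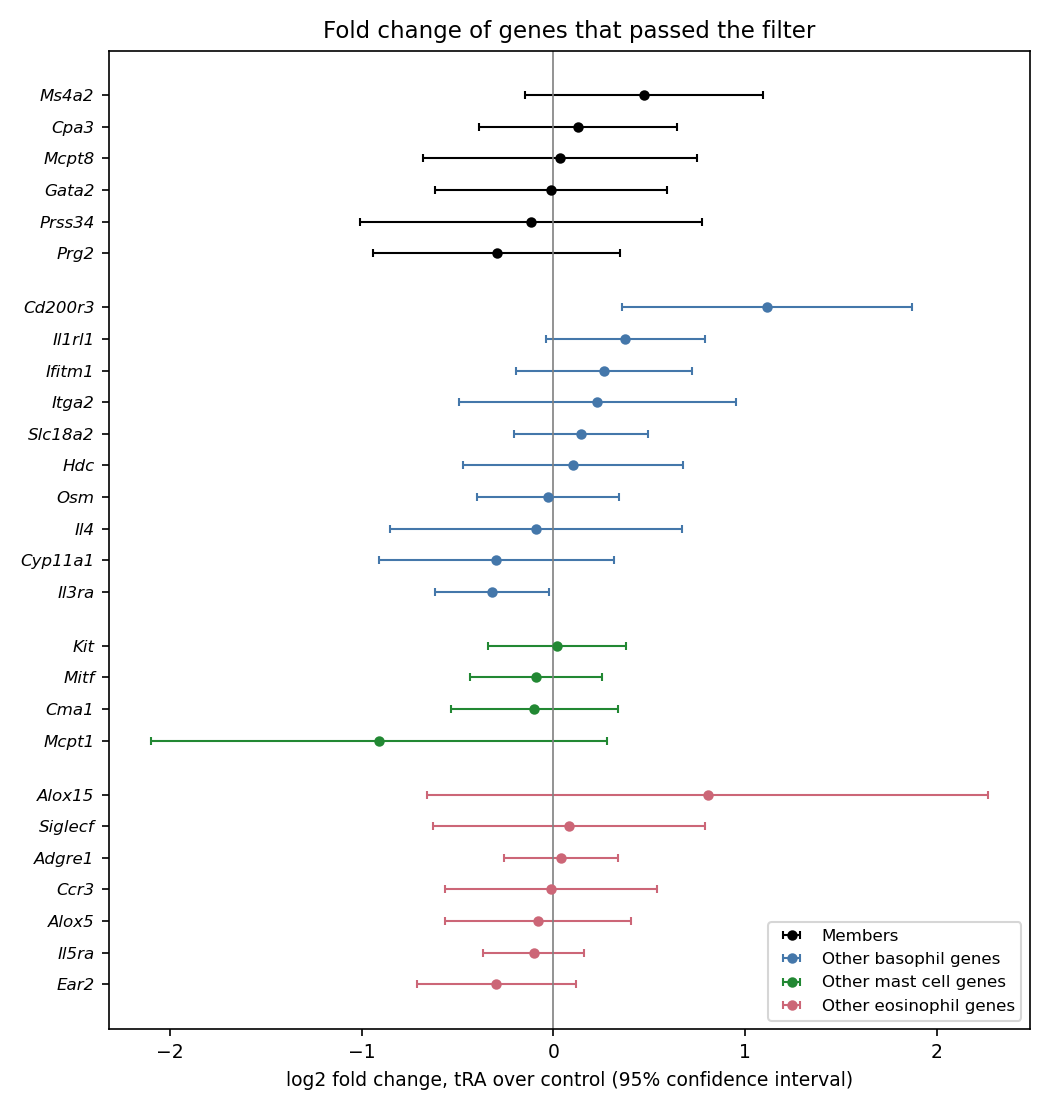
Log2 fold change, tRA over control, with its 95% confidence interval (horizontal axis) for the genes that passed the filter among the 8 genes (black, named members in the key) and among the other basophil (blue), mast cell (green) and eosinophil genes (red). The interval includes 0 for all 6 of the first set, and it does not for Cd200r3 and Il3ra.

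Growth factors, alarmins, chemokines and their receptors were listed as 19 genes, of which 13 passed the filter, with a median log2 fold change of 0.019 and 0 called at an FDR under 0.1. Il3, the growth factor of basophils, had 1 count in all mice together, and the eotaxin gene Ccl11 had 0 counts in all 8. Il5 and Hrh4 did not pass the filter and were picked for mention after their values were seen. Il5 had 4, 1, 3 and 0 counts in control mice 1 to 4 and 0, 1, 0 and 0 in tRA mice 1 to 4. Hrh4 had 3, 4, 6 and 6 counts in control mice 1 to 4 and 7, 9, 9 and 13 in tRA mice 1 to 4. Its CPM was higher in each tRA mouse than in each control mouse. Il7r, with a log2 fold change of 0.33 (unadjusted p 0.0210), and Crlf2, with one of -0.34 (unadjusted p 0.0113), form the receptor for TSLP, a cytokine that acts on basophils, and both had an FDR of 0.757 by edgeR. Both are widely expressed by lymphoid or myeloid cells. Csf2rb, the beta chain shared by the receptors for IL-3, IL-5 and GM-CSF, had a log2 fold change of 0.023. Of 10 genes of ILC2 and Th2 cells, which make IL-4, IL-5 and IL-13, 7 passed with a median of 0.13 and 0 at an unadjusted p under 0.05, Gata3 and Rora being the most abundant.

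Genes of the same cell type were compared across the 8 mice for 4 pairs, of which 2 had enough counts. Mcpt8 and Cpa3 had r = 0.602 (exact permutation p = 0.112, adjusted 0.223 over the 2 pairs) and rho = 0.714 (exact permutation p = 0.0576, adjusted 0.115). Without control mouse 1 and tRA mouse 4, the farthest from the median of Mcpt8, r was 0.844, and it was 0.777 without tRA mouse 2 and 0.429 without tRA mouse 1. For Mcpt8 and Prss34, r was 0.457 (exact permutation p = 0.253, adjusted 0.253) and rho 0.333 (exact permutation p = 0.428, adjusted 0.428). Without the same pair of mice r was 0.612, and without tRA mouse 1 it was 0.0593. Neither pair passed the test over the 8 mice. In the remaining pairs, Ms4a2 was highest in tRA mouse 3 and Fcer1a in tRA mouse 4, and Epx had too few counts to set against Prg2.

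The genes whose levels followed Mcpt8 most closely over the 8 mice, among 13578 ranked, were Cpne3 (r = 0.956), Mtx3 (r = 0.949), Mbnl3 (r = 0.947), Tmem170b (r = 0.905) and Rps6ka3 (r = 0.903). For Prg2, among 13577 ranked, they were Igkv1-110 (r = 0.969), Igkv1-117 (r = 0.956), Igkv3-1 (r = 0.950), Cacna1e (r = 0.950) and BC005561 (r = 0.944). These are the highest values of long rankings over few mice and are a description without a test. Of the genes ranked, 5 exceeded r = 0.9 with Mcpt8 and 28 with Prg2. The Igkv genes encode variable segments of immunoglobulin kappa chains. Of 7 plasma cell genes, all passed the filter and 3 were lower at an unadjusted p under 0.05, with a median log2 fold change of -0.17. Their summed level was 1071, 1026, 1044 and 1230.1 CPM in control mice 1 to 4 and 944, 1071, 810.4 and 820.9 CPM in tRA mice 1 to 4. Jchain was the most abundant at 609 ± 80.3 CPM in control mice and 443 ± 72.3 in tRA mice (SD, n = 4), and the part of plasma cells in the level of Prg2 was not tested.

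The remaining lists were those of mature neutrophils, with 8 genes that all passed and a median log2 fold change of -0.029, and of the main splenic cells, with 11 genes that all passed and a median of 0.11. In the first, 4 genes had a log2 fold change above 0 and 4 below, and at an unadjusted p under 0.05 there were 0 higher and 2 lower with tRA. Csf3r, the most abundant over the 8 mice together, was at 0.25 (FDR 0.848), and the 2 lower genes, S100a8 and S100a9, were at -0.63 (unadjusted p 0.00953) and -0.58 (unadjusted p 0.00357), with an FDR of 0.757 for both by edgeR. In the second, Ptprc, which marks leukocytes, stood at 1712 ± 186 CPM and the B cell gene Cd79a at 1396 ± 110.2 CPM in control mice (SD, n = 4), and 0 genes had an unadjusted p under 0.05. In each of these lists 0 genes were called at an FDR under 0.1.

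The stretches upstream of the genes are shown because Gata2 is among them and its protein recognizes a short word. RefSeq windows from 250 bases before to 50 bases after the gene start on GRCm38.p6 were found for 7 of the 8 genes, with 8 windows since Gata2 has a pair of starts, and Prg2 has no window here. The GATA words AGATAA or TGATAA or AGATAG or TGATAG, on either strand, were found in 4 of the 8 windows. These are the windows of Prss34, Cpa3, Ms4a2 and Fcer1a. In a background of 32851 promoter windows, 29.8% held such a word. The promoters of a whole chromosome were left out of this background, so its shares are not over all promoters. Ms4a2 has 3 words, and 1.76% of the background windows hold at least 3. Counted from the gene start, the first base of the word is at -31 in Prss34, -46 in Cpa3 and -92 in Fcer1a, and at -224, -37 and -11 in Ms4a2. A word within the 100 bases before the start, a stretch chosen after these positions were seen, occurs in 10.4% of the background windows. Retinoic acid receptor half-sites, AGGTCA or AGTTCA or GGGTCA or GGTTCA, were found in 4 of the 8 windows and 43.7% of the background. Direct repeats of them with 5, 2 or 1 bases between were found in 0 of the 8, against 0.0974%, 0.268% and 0.222% of the background. A match is a description of letters, and binding was not measured here.

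The 100 bases before the start, read along the strand of the gene with the GATA words in capitals, come from chr17:25298294-25298393 (plus strand), chr3:20242182-20242281 (minus strand), chr19:11623720-11623819 (minus strand) and chr1:173227230-173227329 (minus strand) of GRCm38.p6 in RefSeq.
Prss34: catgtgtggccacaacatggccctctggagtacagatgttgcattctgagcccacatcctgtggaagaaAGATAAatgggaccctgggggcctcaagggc
Cpa3: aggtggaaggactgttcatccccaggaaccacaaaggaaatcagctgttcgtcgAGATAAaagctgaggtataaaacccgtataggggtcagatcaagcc
Ms4a2: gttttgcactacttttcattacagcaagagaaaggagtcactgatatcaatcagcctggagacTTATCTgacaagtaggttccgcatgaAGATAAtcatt
Fcer1a: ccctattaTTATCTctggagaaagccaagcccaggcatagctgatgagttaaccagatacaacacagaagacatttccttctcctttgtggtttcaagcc
Read on the strand shown, the words of Prss34 and Cpa3 are AGATAA, that of Fcer1a is its reverse complement, and Ms4a2 has both. Prss34, Cpa3 and Ms4a2 did not pass the test between tRA and control mice, and Fcer1a, which was tested only without the filter on low counts, did not pass it there (FDR 0.969 by edgeR).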

How the data were processed

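RNA sequencing libraries of total splenocytes were prepared by the authors with the Illumina TruSeq v2 protocol and sequenced on a HiSeq2500. The authors deposited raw read counts per gene, without normalization. The paper names ea-utils, Btrim, Bowtie2, Tophat2 and HTSeq, whereas the submitters' processing notes name STAR 2.5.2b and featureCounts 1.5.1, and the conflict was not resolved. Both name DESeq2, with which the paper determined its differentially expressed genes, and the notes give version 1.26.0. For the genome the notes give GRCm38, and the paper names an Ensembl release. Use of the strand in counting is not given in the sources used here. A deposited DESeq2 table, which holds the authors' mean counts, fold changes and p-values, was not used.

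Of 51826 identifiers, 51633 matched GENCODE M21 and 193 did not. No libraries of a group were alike within sampling noise (chi-square per degree of freedom 12.9 to 65.4 over 12 pairs). In R 4.3.3, genes were kept by filterByExpr (minimum count 10), scaled by TMM and compared by the quasi-likelihood test of edgeR 4.0.16 with Benjamini-Hochberg adjustment over all 16484 genes kept, without covariates, and the FDR threshold of the study, 0.1, was used. Alternatives were DESeq2 1.42.0, RLE size factors, a stricter filter (at least 10 counts in each library), library size alone, all genes without the filter, voom of limma 3.58.1, the replicate number as a block and each mouse left out in turn. Correlations used log2 CPM (prior count 0.5) with two-sided exact permutation tests, and alternatives for them were a prior count of 2 and group means taken out. Intervals on summed counts and limits at 3 counts cover counting error only. Figures were drawn in Python 3.11.15 with matplotlib 3.10.9.

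The 8 genes and 14 further lists were chosen with earlier results of these data known. Named genes were the 8, the 2 most abundant tested genes of each list and those at an unadjusted p under 0.05, the 5 genes most like Mcpt8 and Prg2, and genes at or near 0. Not all of them are printed. Some genes stand in more than 1 list, and 14 do so when the 8 are counted as a list. Mcpt1, Ccr3, Ear2, Siglecf, Alox5, Alox15, Prg3, Il5 and Hrh4, and the ratios of Fcer1a and Epx with a mouse left out, were added after their values were seen.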

Additional observations from a re-analysis of the deposited data

Results flagged for a closer look

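Among 158 groups of 4 mice examined, 11 held a mouse far from the other 3, where chance gives 7.9. The groups were taken from 64 genes named by rule and from the summed levels of the lists. Alox15, added after its values were seen, was not among them. Of the 8 genes, Fcer1a stood at 0.336 CPM in tRA mouse 4 against at most 0.0916 in the other tRA mice, Gata2 at 3.33 CPM in control mouse 2 against at most 2.22 in the other control mice, and Epx at 0.0945 CPM in tRA mouse 2 against at most 0.0611. The values of Fcer1a and Epx rest on 11 and 3 counts. Control mouse 3 was apart with 173 CPM of Stat5b, 193 CPM of Irf4 and 1433 CPM of Ptprc, each below the other control mice. Control mouse 4 was apart with 169.9 CPM of Lmo2, with summed levels of 4095 CPM for the FcεRI signalling genes and 206.5 CPM for the blood stem and progenitor cell genes with Gata2 among them, all below the other control mice, and with 88.0 CPM for the ILC2 and Th2 genes, above them. Camp, a neutrophil precursor gene, stood at 42.7 CPM in tRA mouse 4 against at most 26.9 in the other tRA mice.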

How the results depend on the processing

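Of the 6 genes that passed the filter, 0 were called at an FDR under 0.1 under the 15 alternatives, although DESeq2 gave an adjusted p to only 3 of them. Fcer1a and Epx were fitted only without the filter and were not called. Ms4a2 was the only one with an unadjusted p under 0.05 in any, without tRA mouse 1. Over all genes tested, DESeq2 called 44 at an FDR under 0.1, edgeR without the filter called 6 and limma-voom called 1, against 0 by edgeR with 1070 at an unadjusted p under 0.05. Leaving out single mice gave 0 to 3 calls, with 3 when tRA mouse 4 was left out, and the number at an unadjusted p under 0.05 ranged from 657 without tRA mouse 4 to 2105 without tRA mouse 1. The number of the 6 genes at an unadjusted p under 0.05 ranged from 0 to 1. For Mcpt8 and Cpa3, r ranged from 0.429 to 0.777 with each mouse left out, and its exact permutation p was 0.0458 without tRA mouse 2. The cause was not tested.

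Of 930 values for 62 named genes under the alternatives, 863 kept their direction and their side of the threshold, 56 changed sign and 11 passed the threshold. The 11 belong to 4 neutrophil precursor genes, all lower with tRA. Camp passed by DESeq2, by limma-voom, without the filter and without tRA mouse 4, Ngp and Ltf passed by DESeq2, without the filter and without tRA mouse 4, and Lcn2 passed by DESeq2. Library size alone gave a log2 fold change of 0.022 for Gata2, 0.021 for Lmo2, 0.022 for Cpne3 and 0.00844 for Tmem170b. Limma-voom gave -0.00922 for Mcpt8 and -0.064 for Irf4. With each mouse left out, 22 genes changed sign at least once, with log2 fold changes of Adgre1 from -0.047 to 0.16, Cma1 from -0.20 to 0.11, Cpa3 from -0.036 to 0.27, Cpne3 from -0.12 to 0.066, Csf2rb from -0.082 to 0.10, Gata2 from -0.25 to 0.16, Hba-a1 from -0.13 to 0.85, Hbb-bs from -0.16 to 0.93, Hdc from -0.12 to 0.31, Igkv3-1 from -0.45 to 0.10, Irf4 from -0.23 to 0.18, Kit from -0.11 to 0.17, Lmo2 from -0.077 to 0.026, Mbnl3 from -0.23 to 0.036, Mcpt8 from -0.26 to 0.24, Mtx3 from -0.049 to 0.052, Osm from -0.18 to 0.084, Prss34 from -0.49 to 0.16, Rora from -0.000758 to 0.21, Rps6ka3 from -0.00650 to 0.12, Syk from -0.00622 to 0.070 and Tmem170b from -0.10 to 0.048. The cause was not tested.

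Mice carry numbers 1 to 4 in either group. Their deviations from the group mean, compared between mice of equal number, had r of 0.142, -0.021, -0.017 and 0.248. Of the 4, 2 correlated best with their own number. With only 4 numbers, this does not settle whether the numbers pair the mice. In the fit with a replicate block, 0 genes had an FDR under 0.1 and 1200 an unadjusted p under 0.05, and the log2 fold change of Irf4 was -0.063.

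Fcer1a and Epx had 11 counts or fewer in each mouse, and the 95% interval of each of the other 6 genes gives the range of changes that its values do not exclude.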
